A study of Mus musculus with 6 samples.

Results

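Translation factors and tRNA synthetases are the proteins that start, extend and end the reading of mRNA on the ribosome and that load each tRNA with its amino acid. Their genes were taken from the deposited table by symbol alone, with a pattern for eukaryotic initiation factors (Eif), elongation factors (Eef), the release factors Etf1 and Gspt, cytoplasmic poly(A)-binding proteins (Pabpc), La-related proteins (Larp), aminoacyl-tRNA synthetases and their scaffold proteins (Aimp). The pattern matched 74 of 10580 genes, and all 74 had an entry of the same symbol in GENCODE vM21 on GRCm38. The RNA came from 3 libraries of fetal Leydig cells (FLCs) at embryonic day 18.5 and 3 libraries of adult Leydig cells (ALCs) of 100-day-old mice. In both groups the cells were sorted from testes of male mice with an Nr5a1 Tg genotype, a green fluorescent protein transgene driven by Nr5a1, a gene of steroidogenic cells that Sertoli cells also use. The methods state that embryos came from CD-1 females mated with heterozygous transgenic males, that the most fluorescent cells were kept, and that cells of several sorts were pooled into a library.

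The measurement used here is the mean over all 6 libraries, both stages together, of read counts divided by size factors, as the authors computed it. It carries no value per library or per stage, so no SD, n or depth stands behind a level, and levels that lie close together cannot be ordered with confidence. Ratios between genes are ratios of these pooled means, and the ratio within either stage can differ. The table lists genes with an adjusted p below 0.05 in the authors' test between the stages. The paper counts fewer genes as different, at a stricter limit on the adjusted p, so a listed gene need not be among those. The size and direction of those differences are not used here, and factors outside the list, such as Eif4a1, Eif4e, Eif4g1, Gspt1 and Qars, are not analysed here. The share of all tested genes that lay below 0.05 was not computed here. The number of a family's genes that are listed is therefore not a result about that family. Counts of listed genes given below only say how many genes are described. A level is given in normalized counts. To compare genes of unequal length, it was divided by the length of the union of all annotated exons and is then given per kb. These lengths are those of GENCODE vM21, whereas the paper names a different GENCODE release for its counts. A length can thus include exons that were not counted, and the effect on levels per kb was not tested.

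Initiation joins the small ribosomal subunit, the initiator tRNA carried by eIF2, the large scaffold eIF3 and the eIF4 proteins that bring the capped mRNA. Elongation factor eEF1A delivers each loaded tRNA to the ribosome and eEF2 moves the ribosome along the mRNA. The release factor eRF1, product of Etf1, recognises the stop codon. Leydig cells make steroid hormones with enzymes in mitochondria and endoplasmic reticulum and also secrete the peptide hormone Insl3. Mitochondria translate their own mRNAs with synthetases that nuclear genes encode, most of them separate from the cytosolic set, while Gars and Kars each give rise to both forms and are grouped here as cytosolic.

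Marker genes of Leydig cells and other testis cells were read in the same mean over all 6 libraries. These values describe no single library or stage. All 5 Leydig markers (Insl3, Cyp17a1, Hsd3b1, Cyp11a1 and Star) were listed, from 21275 normalized counts per kb for Star to 414861 for Insl3. Of 19 symbols of other testis cell types, 9 were listed, all of them far below the Leydig markers, and the lowest was Cxcl2, a cytokine gene, with 5.61 per kb. Csf1r, a macrophage receptor, had 170 per kb, and the germ cell gene Ddx4 had 61.1. Whether RNA of other cells takes part in the levels below was not tested.

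The members lay high among the listed genes. Their median was 2292 normalized counts, against 679 for all 10580 genes, and 63 of the 74 (85.1%) exceeded that overall median. Per kb the median was 507 for the members and 147 for the 10523 listed genes with a length, and 62 members (83.8%) exceeded the latter value. The upper quartile of all listed genes per kb was exceeded by 41 members, or 55.4%. A level of at least 1000 normalized counts was found for 54 members. The 5 highest per gene were Eef1a1, Eef2, Aars, Eif4a2 and Eif3c, the last with 11673 normalized counts. The 2 members under 100 normalized counts were Larp6 with 12.1 and Pabpc5 with 5.19. Together the members held 1.69% of the summed level of all listed genes. No test was made, because genes are not replicates of a condition.

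**Figure D1:**
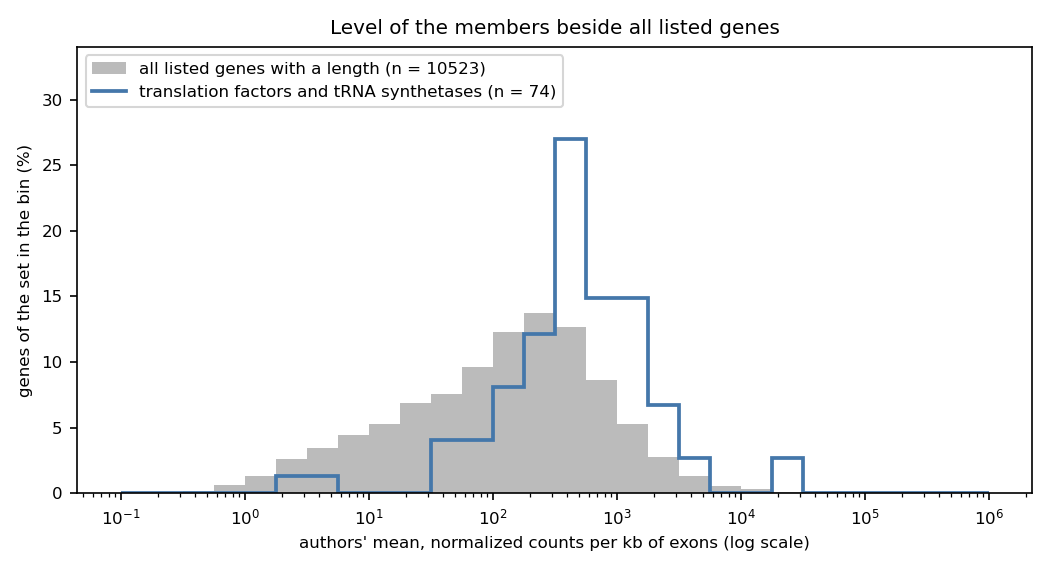
Share of genes (y axis, % of each set) by the authors' mean over all 6 libraries in normalized counts per kb of exons (x axis, log scale), for 10523 listed genes (grey area) and the 74 members (blue line). The members' median of 507 per kb lies to the right of the median of 147 for all listed genes, and Eef1a1 and Eef2 form the separate step at the far right.

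The highest levels were those of elongation factors. Eef1a1, which encodes the eEF1A form found in most tissues, had 75788 normalized counts and 30400.4 per kb, rank 15 of the listed genes per kb. It lies on chromosome 9 from 78478449 to 78489151 of GRCm38. Eef2 had 66252 normalized counts and 19931 per kb, rank 28, and lies on chromosome 10 from 81176631 to 81182498. Both were of the same order as the Leydig marker Star. The next member, Eif5a, was 5.01-fold below Eef2 per kb of exons, whereas per kb of coding length Eif5a had 20462 and Eef2 25739. Eef1a1 and Eef2 alone held 37.7% of the summed level of the members. Eef1d, a subunit of the exchange factor that reloads eEF1A with GTP, had 532 per kb, 57.2-fold below Eef1a1. Eef2k, the kinase that inactivates eEF2, had 207 per kb, 96.4-fold below its substrate's gene. With the coding length these distances were 31.4-fold for Eef1d and 36.5-fold for Eef2k.

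The value of Eef1a1 is the least certain of the high levels. Of its distinct 50-base words, the length of 1 read, 40.4% also occur in annotated transcripts of other genes, 24.7% in the first of them, Gm13456. For Eef2 the share was 7.10%. Over all members the median share was 0.849%, and 12 members exceeded 10%. The share was 0 for many, among them Eif3f, Eif3b, Etf1 and Gars. How the authors' counting treated reads that match several genes is not given in the sources used here.

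**Figure D2:**
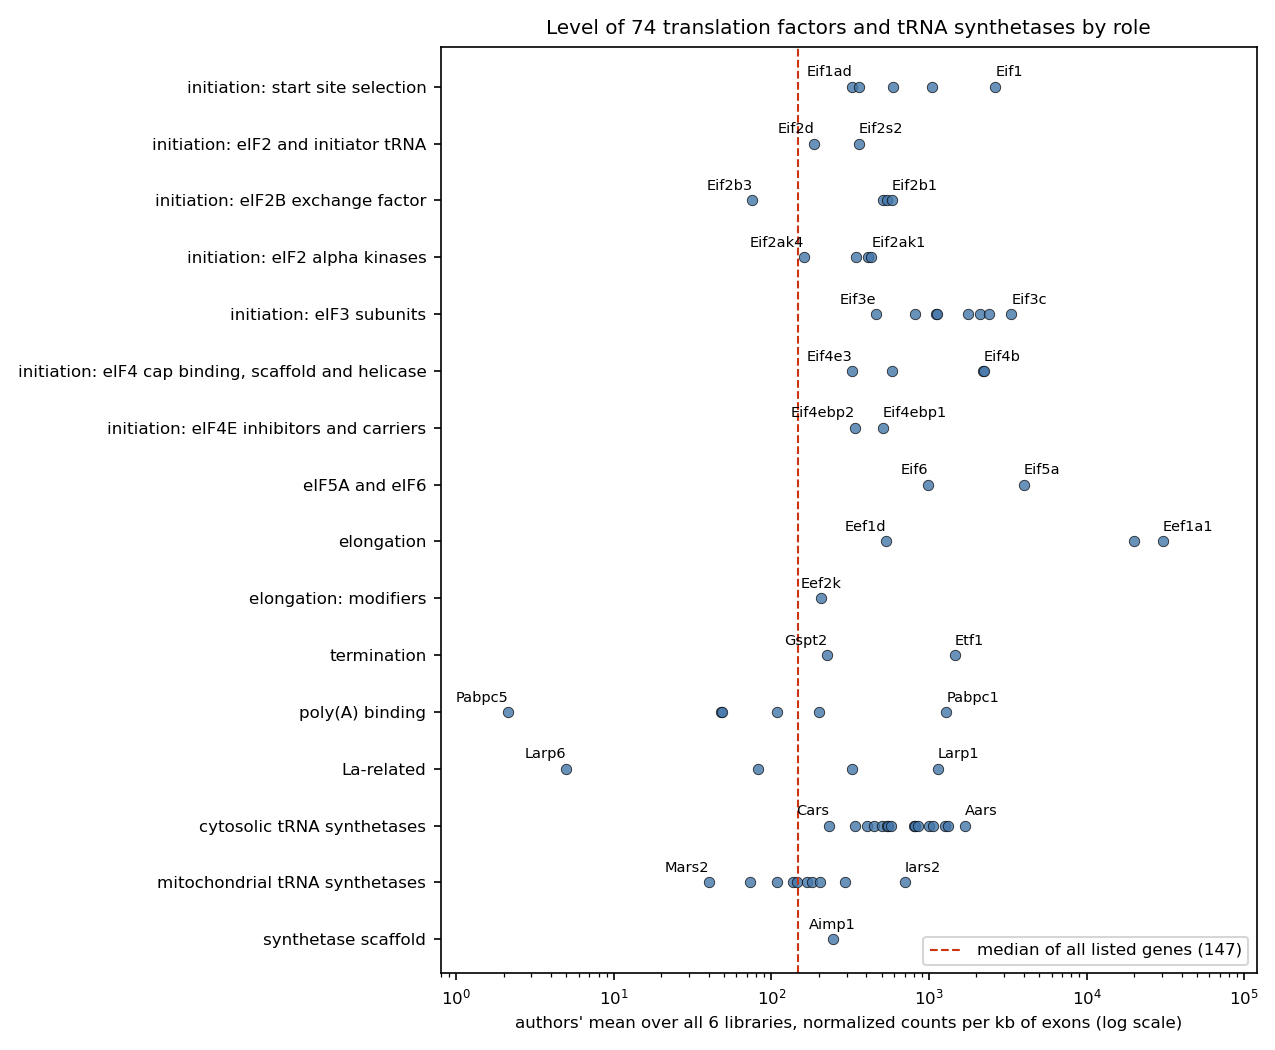
Each point is a gene, placed by the authors' mean over all 6 libraries in normalized counts per kb of exons (x axis, log scale) and by its role (y axis), with the highest and lowest gene of each role named. The red dashed line is the median of all listed genes, 147 per kb. Elongation reaches 30400.4 for Eef1a1, whereas poly(A)-binding and La-related genes reach down to 2.13 for Pabpc5 and 4.98 for Larp6.

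Because the 2 highest members, Eef1a1 and Eef2, belong to the known terminal oligopyrimidine (TOP) mRNAs, whose first bases are a run of C and T that couples their translation to mTOR, their annotated starts are shown. Of 10 such genes in the list made for this purpose, 8 were listed, with a median of 2170.3 per kb, and all 8 exceeded the overall median. Sequences are those of RefSeq on GRCm38.p6, which held 48 of the 74 members. Each line gives the 15 bases before the annotated start and the 15 bases from it onward, on the transcribed strand, 5′ to 3′. Capitals mark a C followed by at least 4 bases that are each C or T, where such a stretch could be read from a base within 5 bases of the start. They begin at the C nearest to the start, and the run of C and T can go on before them.
Eef1a1 (chr9:78481710-78481739, minus strand): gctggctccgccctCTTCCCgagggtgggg
Eif3f (chr7:108934400-108934429, plus strand): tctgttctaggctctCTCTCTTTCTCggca
Eef2 (chr10:81176616-81176645, plus strand): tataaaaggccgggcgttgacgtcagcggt
Eif4b (chr15:102073758-102073787, plus strand): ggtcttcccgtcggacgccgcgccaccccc

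Read in this way, Eif3f carried 11 bases of C and T from its annotated start onward, and Eef1a1 carried 6 bases from 1 base before it. In both windows the run goes on to the left of the capitals. Eef2 and Eif4b had none within 5 bases of the RefSeq start, which says only that these letters are not in that window. Exactly at the start, a tract was found for 2 of the 48 members (4.17%), Eif3f and Wars2, against 3.01% of all 27025 genes in the table. Within 5 bases it was found for 13 members (27.1%) against 21.2% of all genes and 24.0% of the listed ones. The search covered the transcribed strand alone. The 250 bases before the start had a median GC content of 61.6% in members, 58.8% in all listed genes and 52.4% in all genes, with a median of 19, 14 and 6 CpG dinucleotides.

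Among genes of start site selection, Eif1, whose product keeps the scanning ribosome from starting at a wrong codon, was highest with 2631 per kb. Eif5, the factor that makes eIF2 hydrolyse its GTP, had 1045. The eIF1A genes Eif1ax and Eif1a had 595 and 361. Eif1ad, which only the gene list used here places in this group, had 324. Of its exonic bases, 15.3% overlap the opposite-strand gene Banf1, which is also listed. Of Eif1's 50-base words, 19.2% occur in transcripts of other genes. Per kb of coding length Eif1ax, with 7248, lay above Eif5, with 5536, so the order of these genes depends on the length used.

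The ternary complex was represented by Eif2s2, the beta subunit of eIF2, with 357 per kb. Eif2d, a factor that can place tRNA without eIF2, had 187. The 4 kinases that phosphorylate eIF2 alpha and so lower initiation are described here. Eif2ak1, the haem-regulated kinase, had 430.4 per kb, Eif2ak2, the double-stranded RNA kinase, 412, Eif2ak3, the kinase of the endoplasmic reticulum, 343, and Eif2ak4, which senses uncharged tRNA, 161. The genes spanned 2.67-fold, or 5.62-fold with the coding length, where Eif2ak2 was highest, and each exceeded the median of all listed genes. Eif2ak1 shares 8.59% of its exonic bases with Aimp2 on the opposite strand.

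Related pathway genes outside the symbol pattern were also described. Of 13 genes of the mTOR and eIF2 phosphorylation pathways in a fixed list, 9 were listed and 8 of them exceeded the median per kb. Atf4, the transcription factor whose mRNA is translated when eIF2 is phosphorylated, had 4978 per kb. Ppp1r15a and Ppp1r15b, which direct the phosphatase back to eIF2 alpha, had 2526 and 1109.6, Ddit3, a target of Atf4, 1564, and Mtor 490.2. By contrast, Rps6kb2, an S6 kinase gene, had 128.

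eIF2B, the exchange factor that returns eIF2 to its GTP-bound form, contains equal numbers of each of its subunits. Eif2b1, Eif2b2 and Eif2b4 had 579, 539 and 511 per kb of exons, and 1632, 965 and 783 per kb of coding length. Eif2b3, which encodes the gamma subunit, had 75.6 per kb, 7.65-fold below Eif2b1, and was the only listed subunit under the median of all listed genes. Its annotated exons add up to 6520.0 bases for a coding length of 1356. With the longest transcript in place of the union, Eif2b3 was 5.65-fold below Eif2b1, and with the coding length 4.49-fold. It remained the lowest of the 4 listed subunits under each of these 3 lengths.

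eIF3, the largest initiation factor, holds a copy of each subunit. Its 8 listed subunits had 464 to 3325 per kb, in the order Eif3c, Eif3h, Eif3f, Eif3b, Eif3a, Eif3g, Eif3i and Eif3e, and all 8 exceeded the overall median. The span of 7.17-fold shrank to 4.56-fold with the longest transcript and to 2.48-fold with the coding length. Eif3e, the lowest, has 6719 bases of annotated exons and a coding length of 1335, and Eif3c, the highest, has 3511 and 2733. For Eif3h, 20.3% of its 50-base words occur in other genes' transcripts.

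**Figure D3:**
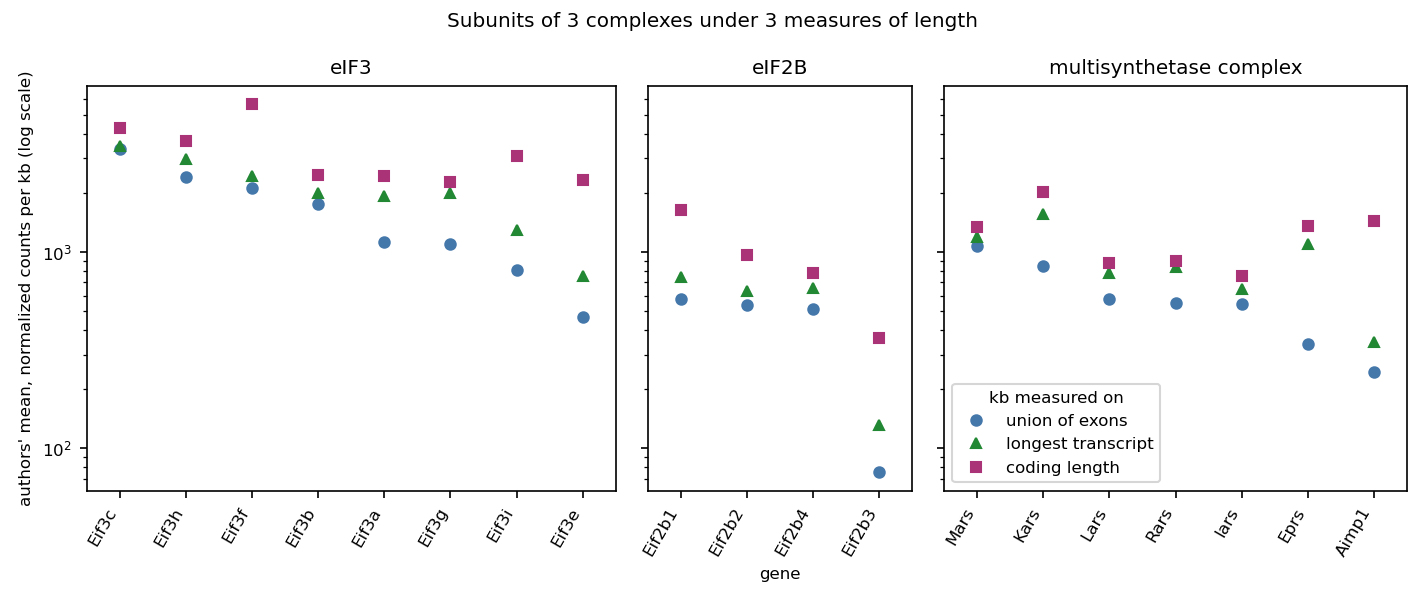
Authors' mean over all 6 libraries in normalized counts per kb (y axis, log scale) for the listed subunits (x axis) of eIF3, eIF2B and the multisynthetase complex, with the kb measured on the union of exons (circles), the longest transcript (triangles) or the coding length (squares). Eif2b3 is lowest in its panel under each length, whereas the order within eIF3 and the multisynthetase complex changes with the length used.

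Of the eIF4 genes, Eif4b, the cofactor of the mRNA helicase, had 2229 per kb and the helicase gene Eif4a2 had 2214. With the longest transcript the values were 2584 for Eif4b and 4365 for Eif4a2, and with the coding length 5432 and 9657. Eif4a2 has 25 annotated transcripts and hosts snoRNA genes in its introns. The scaffold gene Eif4g3 had 582 per kb, and Eif4e3, a divergent cap-binding protein, 325. Eif4e3 shares 14.8% of its exonic bases with Gm20696 on the same strand, which is also listed, so part of its reads may belong to that gene. Eif4ebp1 and Eif4ebp2, the mTOR-controlled inhibitors of eIF4E, had 509 and 338 per kb, but with the coding length the order turned, to 3188 and 5431. Eif5a, which relieves stalled ribosomes and carries the modified residue hypusine, had 3977 per kb, and Eif6, which keeps the ribosomal subunits apart, 991.

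At the end of translation, Etf1 had 1451 per kb, and Gspt2, an intron-poor relative of the eRF3 gene Gspt1, 226, 6.41-fold lower, or 9.09-fold with the coding length.

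Poly(A)-binding proteins link the tail of the mRNA to initiation, and their genes showed the widest spread of any role. Pabpc1 had 8396 normalized counts and 1284 per kb, and the other 5 listed genes had much less. Pabpc4 had 201 per kb, Pabpc2 108, Pabpc4l 48.2, Pabpc6 47.5 and Pabpc5 2.13. Pabpc1 stood 6.39-fold above Pabpc4 and 601.6-fold above Pabpc5, 11.3-fold and 1349-fold with the longest transcript, and 10.8-fold and 968-fold with the coding length. Of Pabpc4's words, 54.8% occur in other genes' transcripts, 51.8% in those of Gm10110, which was itself listed, so reads could have been split between them. Pabpc2 and Pabpc6 are annotated with 1 exon each, and none of their 50-base words occur in other annotated genes.

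The La-related genes also differed widely. Larp1, whose product binds the start of TOP mRNAs, had 1139 per kb, and its relative Larp1b 82.7. Larp7, which stabilises the 7SK RNA of transcription control and is no translation factor, had 324. Larp6, known for binding collagen mRNAs, had 4.98.

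Described here are 16 genes for aminoacyl-tRNA synthetases of the cytosol, from a list of 20. As stated above, this count is no result about the family. All 16 exceeded the overall median, with a median of 689 per kb. Aars, for alanine, was highest with 15733 normalized counts and 1695 per kb. Gars, for glycine, had 1324, Nars, for asparagine, 1269, Mars, for methionine, 1066, and Wars, for tryptophan, 999. Cars, for cysteine, was lowest with 232, and the whole set spanned 7.30-fold. Between these lay Kars with 849.5 per kb, Hars with 819, Sars with 802, Lars with 576, Rars with 549, Iars with 542, Yars with 504, Vars with 448, Tars with 407 and Eprs with 341. Aars shares 14.3% of its exonic bases with Exosc6 on the same strand, so part of its reads may belong to that gene.

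Several cytosolic synthetases form a multisynthetase complex on the scaffold proteins Aimp1, Aimp2 and Eef1e1. Of its 11 genes, 7 were listed, and all 7 exceeded the overall median. Mars was highest per kb, and Aimp1, the listed scaffold, was lowest with 245. Eprs, which encodes a fused synthetase for glutamate and proline, had 6176 normalized counts, the most per gene of the 7, but 18102 bases of annotated exons placed it at 341 per kb and at 1095.5 per kb of its longest transcript. The order of these genes per kb therefore depends on the length used. Mars was 4.35-fold above Aimp1 per kb of exons, whereas Aimp1 lay above Mars per kb of coding length.

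The mitochondrial synthetases were lower. Of 17 genes in the list, 10 were in the table, with a median of 157 per kb, close to the median of 147 for all listed genes, and 5 of the 10 exceeded the latter. Iars2, for isoleucine, had 703 per kb, and Hars2 had 293, Yars2 205 and Vars2 168. Below the median lay Ears2 with 145, Aars2 with 138, Wars2 with 109, Pars2 with 72.6 and Mars2 with 40.0. Mars2 is annotated as 1 exon of 11294 bases with a coding length of 1758. Of 10 factors of mitochondrial translation that carry no synthetase activity, 5 were listed, from 86.2 per kb for Mtrf1l to 243 for Tsfm, with Tufm, the mitochondrial elongation factor Tu, at 199.

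For 7 amino acids a cytosolic gene specific to that amino acid and its mitochondrial counterpart were both listed. The fused gene Eprs, with 341 per kb, stands beside Ears2 with 145 and Pars2 with 72.6 and is not counted among these pairs. In 6 of the 7 pairs the cytosolic gene was higher per kb, by 2.46-fold for Yars over Yars2, 2.66-fold for Vars, 2.80-fold for Hars, 9.16-fold for Wars, 12.3-fold for Aars and 26.7-fold for Mars. The direction in these 6 pairs held with the longest transcript and with the coding length, but the sizes did not. With the coding length they were 3.89-fold for Yars, 2.27-fold for Vars, 1.59-fold for Hars, 3.98-fold for Wars, 24.3-fold for Aars and 5.21-fold for Mars, and with the longest transcript Yars was 4.48-fold above Yars2. For isoleucine the order was the opposite, with Iars2 1.30-fold above Iars per kb of exons, 1.77-fold per kb of the longest transcript and 2.72-fold per kb of coding length. Iars2, on chromosome 1 from 185284726 to 185329396, shares 22.9% of its exonic bases with Rab3gap2 on the opposite strand. The library kit keeps strand, but whether the counting used it is not given in the sources used here, so reads of Rab3gap2 may be part of this level.

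**Figure D4:**
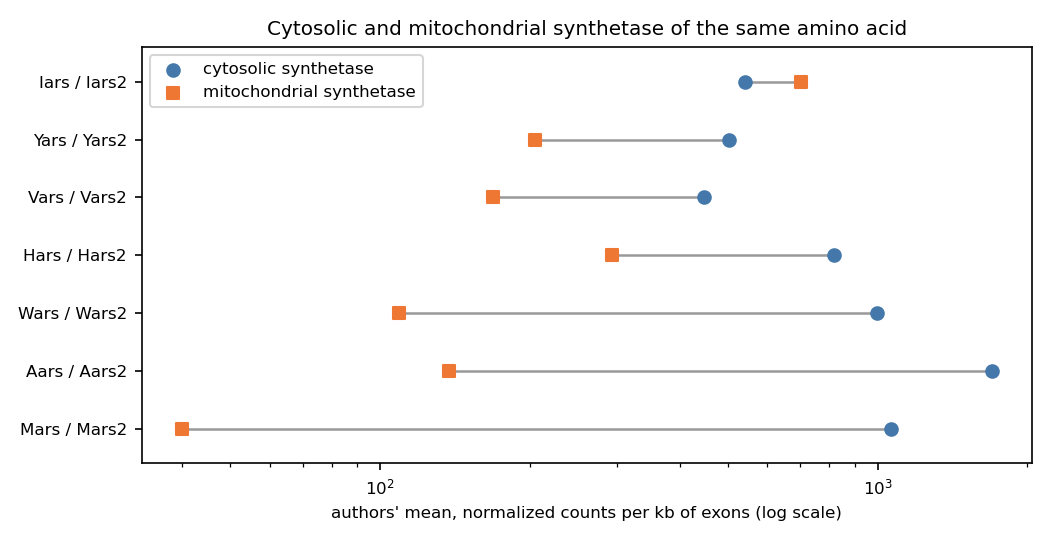
Cytosolic (blue circles) and mitochondrial (orange squares) synthetase genes for the same amino acid, 1 pair per row (y axis), by the authors' mean over all 6 libraries in normalized counts per kb of exons (x axis, log scale). The cytosolic gene is higher in 6 of 7 pairs, and Iars2, with 703, lies above Iars, with 542.

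Gene structure varied widely among the members. Their longest coding length had a median of 1684.5 bases against 1419 for all listed genes, and their longest transcript a median of 11 exons against 8. The coding length ranged from 339 bases for Eif1 to 5286 for Eif4g3. The genes lay on 19 chromosomes, and 24 of the 74 overlapped an exon of another annotated gene, 20 of them on the opposite strand.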

How the data were processed

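Only the mean column of the deposited table was analysed. Per the labels and methods, the authors demultiplexed reads with CASAVA 1.8.2, mapped them to GRCm38 with GemTools, counted them per GENCODE gene, left out genes with few reads and ran DESeq2. The deposited signal is the mean over 6 libraries of counts divided by size factors. The table's other columns hold the authors' log2 fold change, its standard error, the Wald statistic and p-values before and after adjustment, and were not used for any result. A check found no row with an adjusted p of 0.05 or more. No counts per library were used here, so the planned fit of counts was not made, depth per library is unknown, and no test was run. A sheet of library names holds no measurement and was not used.

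Genes were matched to GENCODE vM21 by symbol (10223) or older symbol (300), and 57 had no match. Exon unions, longest transcripts, coding lengths, exonic overlaps and shared 50-base words were computed with Python 3.11.15 and pandas 2.3.3. The word search was tested on simulated data. The members and gene lists were chosen with earlier results of these data known. Named genes are members, plus the highest and lowest of the other lists, with Csf1r, Ddx4, Ppp1r15a, Ppp1r15b, Ddit3, Mtor and Tufm added after their values were seen. Alternatives were other lengths, filters on the level, another denominator and another position of the tract. Values of some genes are not reported here.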

Additional observations from a re-analysis of the deposited data

How the results depend on the processing

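The count of members above the median of all listed genes stayed within 1 of its value of 63 per kb and among matched genes. The members' median level of 2292 became 2399.5 with genes under 10 normalized counts left out and 2405 with genes under 100 left out. Their share of the summed level, 1.69%, became 1.77% without the 3 genes of highest level. Eef1a1 ranked 19 per gene, 15 per kb of exons and 13 per kb of its longest transcript. A pyrimidine tract was found for 2 members at the annotated start and for 13 with 5 bases allowed to either side. Of 30 ratios between members, recomputed with the longest transcript and the coding length (chosen after seeing the data), 28 kept their direction. With the coding length, Eif4ebp1 over Eif4ebp2 turned to 0.587 and Mars over Aimp1 to 0.934, since their coding lengths are different shares of their exons. Orders outside these 30 ratios can also turn, as for Eif5 and Eif1ax with the coding length.

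No paired analysis was possible because the deposited values used here are means over all libraries. For the same reason the planned fits with edgeR or DESeq2, the filter on counts and the fits without each replicate were not run. The depth per library limits no statement here beyond being unknown, and no level has an error.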
